A study of Drosophila melanogaster with 2 samples.

Results

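Cuticle protein, Tweedle and Osiris genes of Drosophila melanogaster were examined for binding of fd96Cb, a forkhead family transcription factor, in whole embryos aged 0 to 24 h. The genes were taken by symbol from the protein-coding genes of the Ensembl annotation, as those named Cpr followed by a number, Ccp84A, Twdl, or Osi followed by a number. The rule gave 127 of 13945 protein-coding genes, made up of 70 Cpr, 7 Ccp84A, 25 Twdl and 25 Osi genes, and the other 13818 genes served for comparison. The embryos came from a transgenic line that stably carries fd96Cb fused at its C terminus to green fluorescent protein (GFP), and chromatin was immunoprecipitated with an antibody to GFP and sequenced (ChIP-seq). There was 1 group of 2 biological replicates, numbered 2 and 3, and no other genotype, age or treatment. Peaks were deposited for each replicate, for both replicates pooled, and as an optimal set by the irreproducible discovery rate (IDR) procedure, which compares the ranks of peaks between replicates. The lists of replicate 2, of replicate 3 and of the pool held 30000 peaks each, and the IDR set held 5743, which were the strongest peaks of the pool. Read totals were not in the files used, so depth is unknown. A list of peaks from whole embryos cannot tell binding in few cells from weak binding in many.

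The insect cuticle is an extracellular layer of chitin fibres and structural proteins that epithelia such as epidermis, trachea and foregut secrete at their apical face. Most Cpr proteins, and those of the Ccp84A genes, carry the Rebers and Riddiford consensus, a chitin-binding motif. Tweedle proteins are a separate insect family of cuticle proteins, known for dominant alleles that make larvae short and squat, and Osiris proteins are insect-specific membrane proteins of cuticle-secreting cells whose genes lie mainly in the region of the Triplo-lethal locus. Many genes of each family stand in tandem arrays and are expressed in bursts when cuticle is made.

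Few of these genes had a strong peak near their start. An IDR summit, the base of highest signal in an IDR peak, lay within 1000 bp of a transcription start site (TSS) at 8 of the 127 genes (6.30%, Wilson 95% interval 3.23 to 11.9), against 3044 of the other 13818 (22.0%, interval 21.3 to 22.7). All 8 belonged to Cpr or Osi, with 7 of 70 Cpr genes (10%, interval 4.93 to 19.2) and 1 of 25 Osi genes (4%, interval 0.710 to 19.5). Twdl had 0 of 25, which allows a share of up to 12.0% at 3 counts, and Ccp84A had 0 of 7, which allows up to 42.9%. The Wilson upper limits of these shares, another way to bound them, are 13.3% for Twdl and 35.4% for Ccp84A. No test of a gene list against other genes was made, and the intervals cover counting over genes, which are not replicates and can share a summit. Each replicate on its own gave a share of the same order. Among its 5743 strongest peaks, replicate 2 marked 8 of the 127 genes (6.30%) against 21.9% of other genes, and replicate 3 marked 6 (4.72%) against 21.8%. The genes differed in part. Compared with the 8 genes of the IDR set, replicate 2 marked Cpr62Ba instead of Cpr65Az, and replicate 3 lacked Cpr65Ea and Cpr72Eb.

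**Figure D1:**
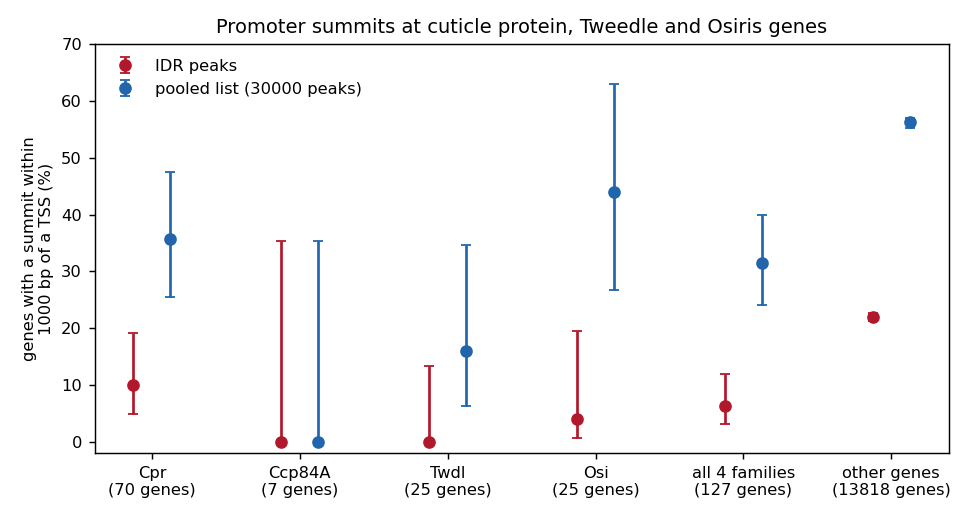
Share of genes with a summit within 1000 bp of a TSS for each family, for all 127 genes and for the other 13818 genes, with Wilson 95% intervals as bars; red points are IDR peaks and blue points the full pooled list. The 4 families together sit at 6.30% for IDR peaks against 22.0% of other genes, and at 31.5% against 56.2% for the pooled list.

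The 8 genes were Cpr65Ay, Cpr73D, Osi24, Cpr64Aa, Cpr67Fb, Cpr65Ea, Cpr72Eb and Cpr65Az, in the order of their strongest summit. None ranked among the first 1000 peaks. Cpr65Ay (FBgn0085300, 3L, 6158075 to 6158630) had the strongest, with a peak from 6157782 to 6157927, a signal value of 165.7 in replicate 2 and 200.8 in replicate 3, and rank 1687 in the pool. That summit lay 802 bp downstream of the Cpr65Ay TSS, beyond the end of this short gene, and only 451 bp upstream of the TSS of CG13297. Signal values are the authors' own and rank peaks within a list only. Cpr73D (FBgn0036680, 3L, 16939100 to 16957689) came next with a peak from 16956792 to 16957049, signal values of 121.5 in replicate 2 and 243.4 in replicate 3, and rank 1727. Here too another TSS was closer, since the summit lay in an intron, 718 bp downstream of a Cpr73D TSS and 468 bp upstream of a TSS of Ogdh, which encodes a subunit of the 2-oxoglutarate dehydrogenase complex and overlaps Cpr73D on the other strand. With each summit counted only for the gene of its nearest TSS, 6 of the 127 genes remained (4.72%), against 15.6% of other genes.

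At the other 6 genes the summit was nearest to the gene itself and upstream of its TSS. Osi24 (FBgn0037409, 3R, 6198811 to 6207678) had the closest, a peak from 6198480 to 6198661 with its summit 250 bp upstream, signal values of 110.0 in replicate 2 and 155.6 in replicate 3, and rank 2613. Cpr64Aa (FBgn0035510, 3L, 4207838 to 4209178) had a peak from 4209846 to 4210000 with the summit 761 bp upstream, in an intron of the long gene CG43367 on the other strand, signal values of 77.06 in replicate 2 and 132.4 in replicate 3, and rank 3417. Cpr67Fb (3L, 10894173 to 10894693) had a pair of overlapping peaks, one 666 bp upstream at rank 3656, listed in replicate 2 with a signal of 84.79, and one 464 bp upstream at rank 5500, listed in replicate 3 with a signal of 117.3. Neither of these summits had a partner within 100 bp in the other replicate, so the replicates placed the summit differently. Cpr65Ea (3L, 7086003 to 7086608) had its summit 970 bp upstream, just inside the window, with signal values of 105.0 in replicate 2 and 56.28 in replicate 3, and rank 4613. Replicate 3 ranked it 8447, below its first 5743 peaks. Cpr72Eb (3L, 16364899 to 16365707) had its summit 472 bp upstream, with signal values of 59.69 in replicate 2 and 78.80 in replicate 3, and rank 4998. Cpr65Az (3L, 6160814 to 6161589) was the weakest, 708 bp upstream at rank 5700, with a signal of 126.4 in replicate 3 and no summit within 100 bp in replicate 2.

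The sequence around a few of these summits is given here to show the letters under the peaks, as 101 bases centred on the summit and read from the Release 6 genome, in dm6 coordinates. Capitals mark a match to the degenerate forkhead pattern RYAAAYA (R for A or G, Y for C or T), searched on both strands.
Osi24 (chr3R:6198511-6198611, plus strand): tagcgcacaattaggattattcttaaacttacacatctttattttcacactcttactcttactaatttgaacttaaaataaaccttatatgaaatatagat
Cpr64Aa (chr3L:4209889-4209989, plus strand): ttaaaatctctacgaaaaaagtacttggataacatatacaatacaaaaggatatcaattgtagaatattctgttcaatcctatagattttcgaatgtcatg
Cpr72Eb (chr3L:16364377-16364477, plus strand): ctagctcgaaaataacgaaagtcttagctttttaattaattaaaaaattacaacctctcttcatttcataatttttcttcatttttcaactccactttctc
Cpr73D (chr3L:16956921-16957021, plus strand): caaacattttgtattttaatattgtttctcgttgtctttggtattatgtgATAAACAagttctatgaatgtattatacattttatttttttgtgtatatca
Of these 4 sequences, only the one at Cpr73D holds a match. Counted by nearest TSS, the summit at Cpr73D falls to Ogdh. On that count 0 of 7 IDR promoter summits of the 4 families held this pattern, against 39.1% of the 2504 of other genes. For 0 of 7 the bound at 3 counts is 42.9% and the Wilson upper limit is 35.4%. These bounds fall on either side of 39.1%, so 7 summits are too few to decide whether the shares differ. The strict forkhead pattern GTAAACA was in 0 of 7, against 3.15%. GC content averaged 29.0% ± 7.45 (SD over 7 summits) in the 4 families and 30.8% ± 8.46 (SD over 2504 summits) in other genes. Over the strongest summit of each of the 8 genes, 1 of 8 windows (12.5%) held RYAAAYA. The window at Cpr65Ea had 45.5% GC and those of the other 7 genes between 21.8% and 27.7%.

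**Figure D2:**
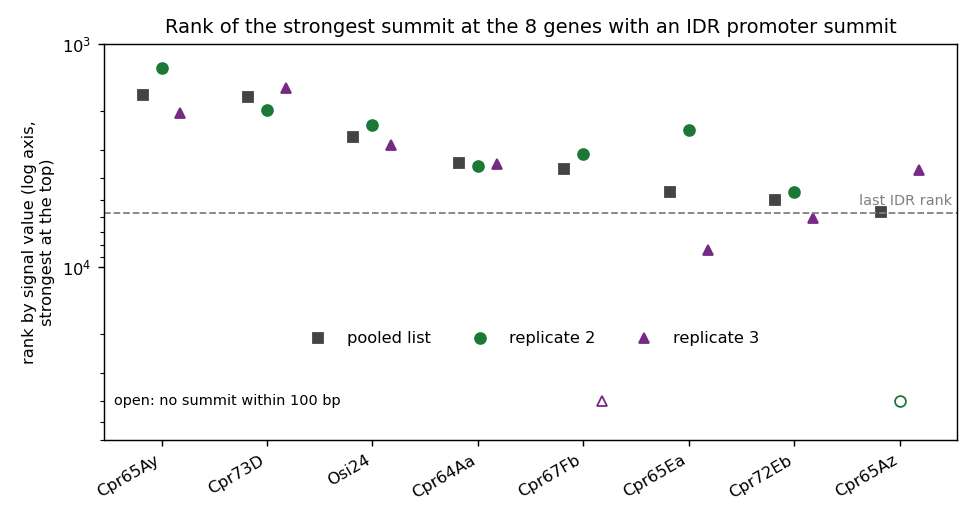
Rank by signal value (log axis, strongest at the top) of the strongest summit at each of the 8 genes, in the pooled list (squares), replicate 2 (circles) and replicate 3 (triangles); open symbols mark no summit within 100 bp and the dashed line the last IDR rank, 5743. Cpr65Ay, Cpr73D, Osi24 and Cpr64Aa rank above the line in both replicates, while Cpr67Fb and Cpr65Az each lack a matching summit in 1 replicate.

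The gap between these genes and other genes was widest just upstream of the start. In the 500 bp upstream of the 5′ end of the gene, there were 2.36 IDR summits per 100 genes (3 summits) in the 4 families, against 14.7 per 100 other genes (2025 summits). From 1000 to 500 bp upstream the values were 3.15 and 2.42 per 100 genes, and from 1500 to 1000 bp upstream 2.36 and 2.36. The first 500 bp downstream held 0 summits in the 4 families and 2.06 per 100 other genes. Farther downstream a summit can be counted again for a neighbour in the array: of the 6 summits from 1500 to 2000 bp downstream, 4 were the upstream summits of Cpr64Aa, Cpr67Fb and Cpr72Eb, counted for Cpr64Ab, Cpr67Fa2 and Cpr72Ea. With a window of 500 bp only 3 of the 127 genes retained an IDR summit (2.36%), against 18.7% of other genes. These were Osi24, Cpr67Fb and Cpr72Eb. Just outside the 1000 bp window lay Cpr65Eb, 1209 bp from the summit already given for Cpr65Ea, then Osi6 and Osi22, each 1466 bp from an IDR summit. The summit near Osi22, at rank 5680, was only 350 bp upstream of the TSS of apn. It had no summit within 100 bp in either replicate. The median distance from a TSS to the nearest IDR summit was 15400 bp for the 127 genes and 6520 bp for other genes. By family it was 9770 bp for Cpr, 18000 bp for Ccp84A, 21200 bp for Twdl and 17700 bp for Osi.

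**Figure D3:**
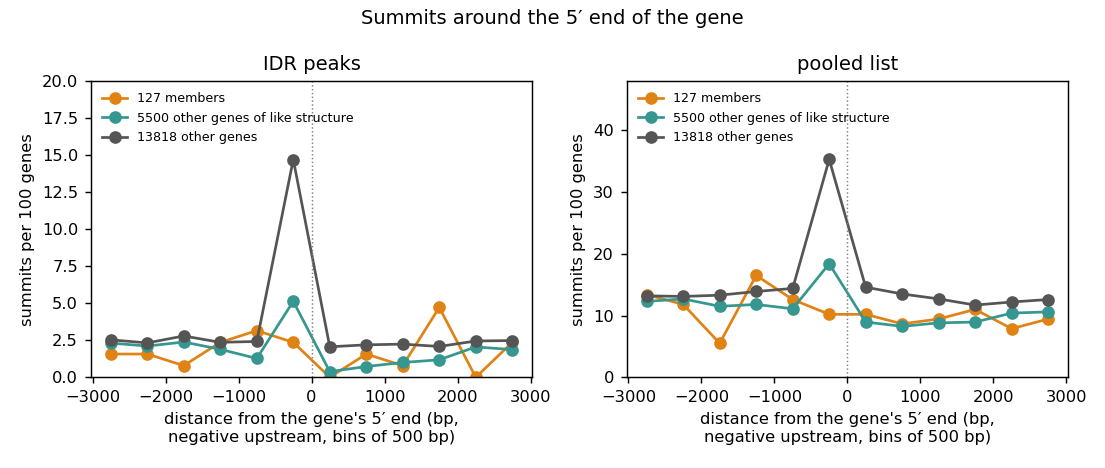
Summits per 100 genes by distance from the 5′ end of the gene in bins of 500 bp (negative upstream), for the 127 genes (orange), 5500 other genes with 1 TSS, a span of up to 5000 bp and no divergent neighbour (green) and all 13818 other genes (grey), with IDR peaks on the left and the full pooled list on the right. In the bin just upstream the IDR values are 2.36, 5.13 and 14.7 per 100 genes, the first over all 127 genes whatever their structure.

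With weaker peaks included, fewer of these promoters than of others had a summit, but here the replicates disagreed. The full lists also hold the strong peaks, so their shares do not give the frequency of weaker peaks alone. The pooled list placed a summit within 1000 bp of a TSS for 40 of the 127 genes (31.5%, Wilson 95% interval 24.1 to 40), against 56.2% of other genes. The full list of replicate 2 marked 59 of the 127 (46.5%) against 51.1% of other genes, and that of replicate 3 marked 26 (20.5%) against 57.7%. The strongest summit at the 40 genes had a median pooled rank of 19306. By nearest TSS, 52 pooled promoter summits fell to the 4 families with a median rank of 19687, and 9777 fell to other genes with a median rank of 12445. Of the 45 such summits below the IDR set at the 4 families, 7 (15.6%) had a partner within 100 bp in both replicates, 21 (46.7%) in replicate 2 alone and 7 (15.6%) in replicate 3 alone. At other genes the shares were 20% for both, 19.7% for replicate 2 alone and 40.6% for replicate 3 alone. Within the IDR set, 4 of 7 promoter summits of the 4 families (57.1%) had a partner in both replicates, against 92.3% of the 2504 of other genes. The former share rests on 7 summits only. Both summits of the overlapping pair at Cpr67Fb count among those without a partner in both replicates. The weaker summits of the replicates at these genes also differed in base composition and location. Below its 5743 strongest peaks, replicate 2 had 62 summits within 1000 bp of a TSS of these genes, with a mean GC of 50.1% ± 10.1 (SD) and 27 of them in coding exons (43.5%), whereas replicate 3 had 30, with 39.0% ± 12.7 and 6 in coding exons (20%). Over all weaker peaks, GC was 44.0% in replicate 2 and 40.4% in replicate 3, and coding exons held 17.5% and 10.2%. The part of GC content in the difference between replicates was not tested.

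Among the Tweedle genes the pooled list marked 4 of 25 (16.0%), all below the IDR set. TwdlF had the strongest, at rank 11847 in the pool, 9861 in replicate 2 and 18666 in replicate 3, with its summit 258 bp downstream of the TSS in coding sequence. TwdlV followed at rank 19071 in the pool and 11662 in replicate 2, and TwdlN at rank 20536 in the pool and 10567 in replicate 2, neither of them matched in replicate 3. The fourth was TwdlW at rank 24257, listed in neither replicate within 100 bp. Of the Ccp84A genes, 0 of 7 had a pooled summit and 3 of 7 had one in the full list of replicate 2. Of the Osiris genes, 11 of 25 (44.0%) had a pooled promoter summit, and of these only Osi24 reached the IDR set. Next after it were Osi4, 458 bp upstream at rank 8862 in the pool, 6581 in replicate 2 and 9590 in replicate 3, and Osi19, 161 bp upstream at rank 11438, ranked 6390 in replicate 2 and not matched in replicate 3. Of the 25 Cpr genes with a pooled promoter summit, 18 were below the IDR set. The strongest of these was Cpr67Fa1, 511 bp upstream at rank 6722 in the pool, 6970 in replicate 2 and 6738 in replicate 3.

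Of the 127 genes, 74 stood in 9 clusters, defined as 4 or more of these genes on 1 arm with gaps of at most 20 kb. Over the 9 clusters together, IDR summits were sparser inside than in the borders. Inside lay 8 summits in 321 kb, or 2.49 per 100 kb (exact Poisson 95% interval 1.08 to 4.91), and in the 20 kb borders on each side 20 summits in 360 kb, or 5.56 per 100 kb (interval 3.39 to 8.58), while the chromosome arms as a whole had 4.29. These intervals overlap and cover counting over summits only. Not each cluster had that order, since the Cpr64A cluster had 11.7 per 100 kb inside and 7.5 in its borders, and the Cpr65A cluster 6.59 inside and 5 in its borders. The border count includes the summit upstream of Osi24, 250 bp outside its cluster, and one nearest to Cpr76Ba, 832 bp outside. With the edges moved out by 1000 bp, an alternative added after the data were seen, 10 summits lay inside (2.95 per 100 kb) and 20 in the borders (5.56). Among the 2871 strongest IDR peaks the counts were 1 inside and 10 in the borders. In the pooled list the densities were alike, 20.9 per 100 kb inside and 20.8 in the borders, but this rests on the Osiris cluster, without which they were 12.3 and 20.3. Counted by promoter, 4 of 74 members inside clusters had an IDR summit (5.41%), 2 of 26 other genes inside them (7.69%), and 20 of the 90 nearest non-members, 5 on each side (22.2%), close to the 22.0% of all other genes. Members outside clusters had 4 of 53 (7.55%).

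By cluster, 5 of the 9 held no IDR summit. The Ccp84A cluster (18.2 kb, 7 genes), which lies in the Antennapedia complex between the Hox genes labial and proboscipedia, had 0 IDR and 0 pooled summits inside and 3 IDR summits in its borders, 1 in an intron of lab and 2 in introns of pb. The Twdl cluster from TwdlM to TwdlD (21.9 kb, 12 genes) had 0 IDR summits and 1 pooled summit, and 1 IDR summit in its border, in an intron of beat-VII and 1622 bp upstream of Tb, the Tubby gene, whose RefSeq synonyms include TwdlA and which the symbol rule leaves out. The X-linked Twdl cluster (13.3 kb, 4 genes) had 0 of either kind inside and 3 IDR summits in its borders, near CG34325 and goe. The Cpr76B cluster (20.7 kb, 4 genes) also had 0 of either inside, and its border held a peak of rank 1281 only 832 bp from the cluster, with signal values of 178.7 in replicate 2 and 261.8 in replicate 3. The Cpr49A cluster (8 genes) had 0 IDR summits inside and 0 in its borders.

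The remaining 4 clusters held the 8 inner summits. In the Osiris cluster (142614 bp, 21 genes from Osi24 to Osi20) 4 IDR summits lay inside, each beyond 1000 bp from a TSS and in intergenic sequence next to Osi5 and Osi6. The strongest, 6665 bp downstream of the Osi6 TSS, had signal values of 109.6 in replicate 2 and 135.1 in replicate 3 and rank 2941, with another 6864 bp downstream at rank 5219. Another, 1466 bp upstream of Osi6, had rank 4561, and the one 1701 bp downstream of the Osi5 TSS had rank 3941, with 22.42 in replicate 2 and 172.8 in replicate 3, so that it rests mainly on replicate 3. The summit upstream of Osi24 stands 250 bp outside the first base of the cluster and was counted in its border, together with 2 in introns of Pak, which encodes a protein kinase. Pooled summits were dense here beside the arms as a whole, with 45 summits or 31.6 per 100 kb (interval 23.0 to 42.2) against 22.4. The borders had 25 per 100 kb (10 summits, interval 12.0 to 46.0). That interval holds 31.6, so these counts do not separate the inside from the borders. Of the 45 pooled summits inside, 11 had partners in both replicates, 13 in replicate 2 alone, 12 in replicate 3 alone and 9 in neither. In the Cpr65A, Cpr64A and Cpr47E clusters, the inner IDR summits numbered 2, 1 and 1. That in the Cpr47E cluster was 645 bp upstream of TpnC47D, a troponin C gene that sits among the Cpr genes. Of the 4 clustered genes with an IDR promoter summit, Cpr64Aa and Osi24 were the first gene of their cluster and Cpr65Az was the last. Cpr65Ay stood next to last, and its summit was nearer to the TSS of CG13297. These positions were noticed after the values were seen.

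Beside the Cpr64A cluster, 3 IDR summits lay in introns of ImpL2, which encodes a secreted insulin-binding protein. The strongest of them, at rank 180, had signal values of 466.4 in replicate 2 and 790.3 in replicate 3, and the others had ranks 207 and 2803. All of them exceeded in rank the Cpr64Aa summit inside the cluster, at rank 3417. To the right of the Cpr47E cluster, summits lay near the TSSs of CG13220 at rank 3650, Fbl6 at rank 643 and CG42336 at rank 3363. The borders of the Cpr65A cluster held a summit in a coding exon of l(3)mbn, itself among the other structural cuticle protein genes counted further on, at rank 3912 and one 106 bp upstream of CG7376 at rank 4860, and the far border of the Cpr76B cluster one nearest to CG9300 at rank 4312.

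**Figure D4:**
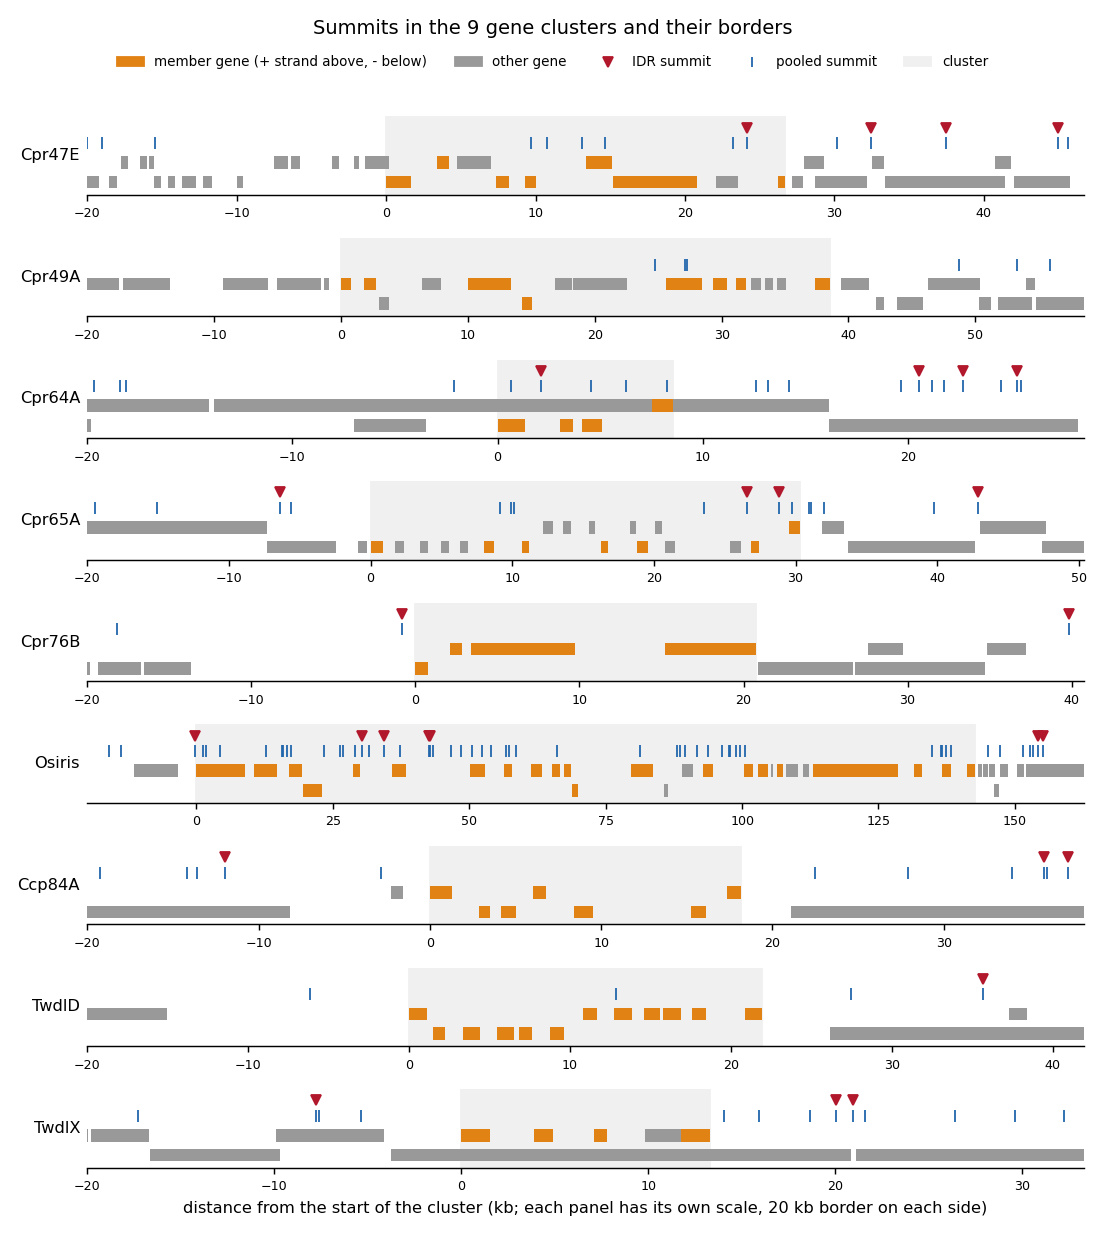
Maps of the 9 clusters with 20 kb on each side, by distance in kb from the first base of each cluster (each panel has its own scale); orange bars are the genes of the 4 families, grey bars other genes, red triangles IDR summits and blue ticks pooled summits. The Cpr49A, Cpr76B, Ccp84A and both Twdl clusters hold no red triangle inside, and the Osiris cluster holds 4.

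Gene structure differed between these genes and the rest. Of the 127 genes, 117 (92.1%) had 1 annotated TSS, against 73.3% of other genes, and the median span was 1150 bp against 2180 bp. A divergent neighbour, meaning a TSS of another gene on the opposite strand at most 1000 bp upstream, was present at 7 of the 127 (5.51%) and at 36.5% of other genes. Among other genes, 36.3% of those with a divergent neighbour had an IDR summit and 13.8% of those without. A narrower comparison, chosen after the data were seen, took only genes with 1 TSS, a span of up to 5000 bp and no divergent neighbour. There the shares were 6 of 106 (5.66%, Wilson 95% interval 2.62 to 11.8) for the 4 families and 399 of 5500 (7.25%) for other genes, so that the other genes' share lies inside the interval. In the 500 bp upstream the density in such other genes was 5.13 IDR summits per 100 genes (282 summits). The 2.36 per 100 genes given above is over all 127 genes whatever their structure, so these densities are not of like sets.

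**Figure D5:**
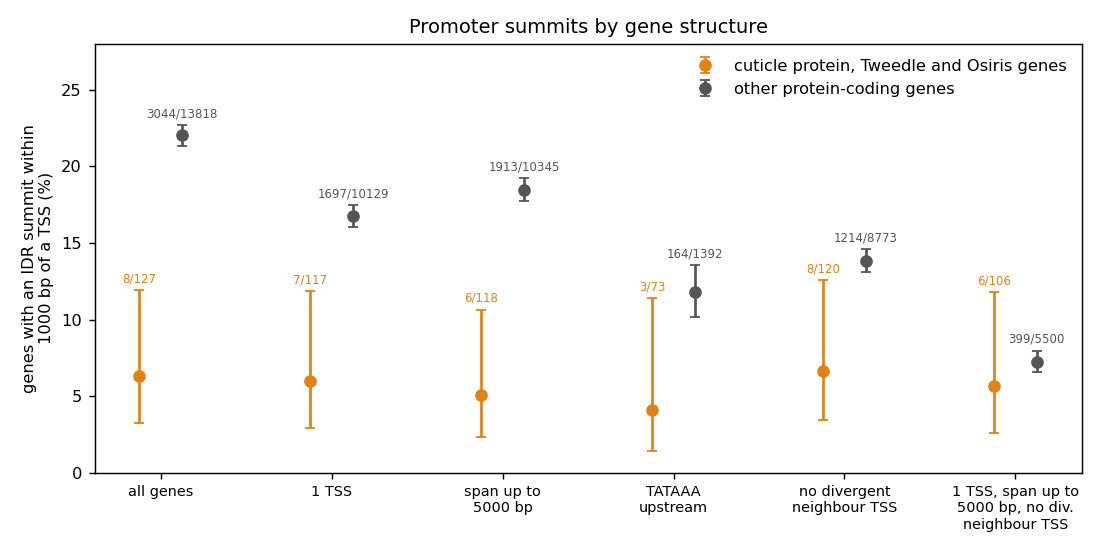
Share of genes with an IDR summit within 1000 bp of a TSS, for the 127 genes (orange) and other genes (grey), over all genes and within genes of a given structure; bars are Wilson 95% intervals and the labels give genes with a summit over genes counted. The gap of 6.30% against 22.0% over all genes narrows to 5.66% against 7.25% among genes with 1 TSS, a short span and no divergent neighbour.

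Promoter sequence differed as well. The TATA box letters TATAAA, searched on the sense strand from 45 to 15 bp upstream of a TSS, occurred at 73 of the 127 genes (57.5%), against 10.1% of other genes. The share was 61.4% of Cpr, 71.4% of Ccp84A, 60% of Twdl and 40% of Osi genes. The 80 bases before the TSS of a few genes without an IDR promoter summit, on the strand of the gene and with TATAAA in capitals, show the arrangement.
TwdlM (chr3R:26619038-26619117, plus strand): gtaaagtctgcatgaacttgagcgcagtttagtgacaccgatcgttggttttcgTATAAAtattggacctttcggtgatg
TwdlX (chrX:16731011-16731090, plus strand): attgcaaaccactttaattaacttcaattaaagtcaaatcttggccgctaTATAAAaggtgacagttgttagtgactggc
Ccp84Aa (chr3R:6704004-6704083, plus strand): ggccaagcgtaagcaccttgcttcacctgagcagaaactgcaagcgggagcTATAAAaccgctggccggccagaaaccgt
Osi7 (chr3R:6248914-6248993, plus strand): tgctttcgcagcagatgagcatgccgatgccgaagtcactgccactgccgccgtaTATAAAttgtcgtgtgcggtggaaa
Cpr76Ba (chr3L:19518333-19518412, minus strand): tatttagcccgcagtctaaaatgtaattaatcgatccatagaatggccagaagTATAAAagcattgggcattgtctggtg
In these 5 sequences the match begins between 25 and 30 bp upstream of the TSS. They do not stand for all such genes, since Osi6, also without an IDR promoter summit, has no match in its 80 bases. Nor is the match limited to genes without a summit, since it begins 33 bp upstream at Cpr64Aa and 34 bp upstream at Cpr72Eb. Among genes with this match from 45 to 15 bp upstream, 3 of 73 in the 4 families (4.11%) and 164 of 1392 others (11.8%) had an IDR promoter summit. Among genes without it the counts were 5 of 54 (9.26%) and 2880 of 12426 (23.2%). Cpr67Fb and Cpr65Az count as without it, though TATAAA begins 58 and 49 bp upstream there, outside the searched span. Osi24, also without it, has none in its 80 bases. GC content from 250 bp upstream to 50 bp downstream of the TSS had a median of 47.0% in the 127 genes and 38.7% in other genes, with 50% in Osi genes. In the fifth of all promoters with the highest GC, 4 of 72 genes of the 4 families (5.56%) had an IDR summit, against 17.1% of other genes. The pattern RYAAAYA occurred at any TSS of 44.9% of these genes against 68.7% of others, and GTAAACA at 5.51% against 11.6%. More sequence was searched at genes with more TSSs, and 92.1% of the 127 genes had a single TSS, against 73.3% of others. The part of base composition or of TATAAA in the number of summits was not tested.

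Cuticle genes outside the symbol rule were counted in 5 further groups. Of 28 other structural cuticle protein genes, among them the Lcp genes, Edg84A and resilin, 0 had an IDR promoter summit, which allows a share of up to 10.7%, and 2 had a pooled one (7.14%), against 56.2% of genes outside the 4 families. Pooled promoter summits stood at 57.7% of the chitin genes, 50% of the tanning genes, 60% of the zona pellucida genes and 65.0% of the regulators. For the IDR set, genes for chitin synthesis, deposition and turnover had 4 of 26 (15.4%). These were Cht7, a chitinase gene, with its summit 177 bp upstream at rank 905, Idgf2, which encodes a chitinase-like growth factor, at rank 2063, mmy, which encodes the enzyme that makes the activated sugar for chitin, at rank 3045, and Chs2, a chitin synthase gene, at rank 5299. At Idgf2 the TSS of CG5888 was nearer. Tanning and pigment genes had 2 of 10 (20%), namely Ddc, which encodes dopa decarboxylase, 877 bp upstream at rank 3751, and Pu, which encodes GTP cyclohydrolase, at rank 4701 and nearer to CG4286. Zona pellucida genes of the apical matrix had 1 of 10, tyn, at rank 1193. Regulators of epidermal and cuticle genes had 4 of 20 (20%), the ecdysone response gene Eip75B at rank 508, grh, which encodes the epidermal factor Grainy head, at rank 2115, usp at rank 2152 and EcR, which with Usp forms the ecdysone receptor, at rank 2796. The 4 groups other than the structural one lay between 10% and 20%, against 22.0% of all genes outside the 4 families.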

How the data were processed

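ChIP-seq for GFP-tagged fd96Cb in 2 embryo samples was analysed from the peak lists the authors deposited. Each list gives, per the file headers of the notes deposited with the samples, peaks in the narrowPeak layout against a control, in dm6; the pooled list draws on both alignments and the optimal IDR set on all 3 lists. The deposited signal value ranked peaks within a list only, and the deposited −log10 q-value was not used further. For the peak caller, the aligner, the IDR threshold and depth, nothing is stated: they are not given in the sources used. Chromatin had been sonicated to 200 to 800 bp, per the labels. The labels' antibody field names fd96Cb, and their description an anti-GFP immunoprecipitation.

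Protein-coding genes and 19607 TSSs came from Ensembl release 115, and sequence from Release 6, whose arms X, 2L, 2R, 3L, 3R and 4 hold every peak. Summits, at most 4 per list outside their interval, were moved to its edge; a replicate summit within 100 bp counted as the same. Coordinates are 1-based. The genes and lists were chosen with earlier results of these data known. Named were all genes with an IDR promoter summit, the 3 strongest pooled summits of each family, genes nearest to IDR summits in clusters and borders, and up to 4 per list of other genes, of whose 97 symbols 94 matched. TwdlW, Cpr67Fa1, Cpr62Ba and apn, and genes just outside the window, were added after values were seen. Shares carry Wilson and densities exact Poisson 95% intervals. The counting functions were tested on simulated data. Tools were Python 3.11.15 with pandas 2.3.3 and numpy 2.4.6 for counting, scipy 1.17.1 for intervals and matplotlib 3.10.9 for plots.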

Additional observations from a re-analysis of the deposited data

How the results depend on the processing

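The share of the 127 genes with an IDR promoter summit was numerically below that of other genes in all 14 alternatives. Of these, the divergent neighbour, combined structure and TATAAA restrictions were added after the data were seen. Under the combined structure restriction the gap was small, at 5.66% (Wilson interval 2.62 to 11.8) against 7.25%. The other genes' share lay inside that interval, so this alternative does not separate the groups. Over all 127 genes the share was 6.30% in the main count and 2.36% with a window of 500 bp. It was 13.4% at 2000 bp (others 27.9%), 22.0% at 5000 bp (others 43.7%) and 2.36% among the 2871 strongest IDR peaks (others 13.0%). Leaving out a replicate gave 4.72% to 6.30%. For Cpr the share was 2.86% at 500 bp, 34.3% at 5000 bp, 2.86% among those 2871 and 7.14% to 10% with a replicate left out. For Twdl and Ccp84A it was 0 in each of 9 alternatives, and for Osi it ranged from 4% to 16.0%. The pooled share was 19.7% at 500 bp, 46.5% at 2000 bp, and 20.5% to 46.5% with a replicate left out, which repeats the shares given above for the full list of each replicate. The cause of that spread was not tested.

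The density of IDR summits inside clusters was 2.49 per 100 kb, and 0.312 for the 2871 strongest against 2.78 in the borders. With the pooled list it was 20.9 inside and 20.8 in the borders. Leaving out a replicate gave 1.87 inside, against 3.89 to 6.11 in the borders, and the border value was 3.89 at a border of 10 kb. Depth is unknown, so a promoter without a listed peak is one where none was detected. No paired analysis was possible because there is a single group.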
